A study of Ovis aries and Bos taurus with 10 samples.

Results

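The solute carriers are membrane proteins that move sugars, amino acids, ions, vitamins and metabolites across the plasma membrane and the membranes of organelles. The genes described here are those whose annotation symbol on the Affymetrix Bovine Genome Array begins with SLC and a family number. The symbol rule found 179 genes of 42 families, among 9155 genes with a symbol of their own, on 252 of 24016 probe sets. Each gene was read from 1 probe set, the one with the highest mean log2(signal + 20) over the captured arrays, and 51 of the 179 genes had several probe sets to choose from. Of the 179 genes, 2 carry an SLC symbol but encode no carrier: SLC4A1AP (kanadaptin) and SLC7A6OS, a factor of RNA polymerase II import. They were kept because the rule takes them, and they are named as such.

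Oocytes and granulosa cells (GC) had been cut out of ovary sections by laser capture microdissection from newborn lambs under 1 day old, at the primordial, primary and secondary follicle stage. This gave 6 arrays, 1 for each stage and compartment: PDO, PMO and SECO for the oocytes and PDG, PMG and SECG for the GC, with RNA pooled from 2 animals for the primordial and secondary samples and from 4 for the primary samples. All 6 were amplified over 2 rounds and labelled with the Arcturus turbo kit (P3). The other 4 arrays held whole fetal ovary: ovine ovary of 132 days post coitum labelled by the standard Affymetrix protocol (P1), by 2 rounds of amplification with Affymetrix labelling (P2) and by P3, and bovine ovary of 8 months post coitum under P1. Every group is a single array, so the stages stood in for replicates of a compartment and the compartments for replicates of a stage. The array probes are bovine and 9 of the 10 samples are ovine. Values are MAS 5.0 signals, scaled intensities without a unit, and the signal of one probe set cannot be set against that of another.

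The oocyte of an early follicle lies inside its GC and is joined to them by gap junctions, and it is known to receive small molecules from them. In the growing follicle, GC are known to take up glucose and to pass pyruvate to the oocyte, which uses glucose itself poorly, and neutral amino acids can enter the oocyte through the GC. Oocytes also accumulate zinc, which meiosis needs, and carry many mitochondria, whose inner membrane is crossed by the SLC25 carriers.

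Many of the solute carrier genes gave no signal above the detection limit in the captured cells. Detection on an array meant a place among its brightest probe sets, in a share equal to the present calls stated for that array. The signal limit this set ranged from 45.8 on PDG to 74.2 on PMO. By this measure 89 of the 179 genes (49.7%) were detected on at least 1 captured array, against 68.6% of all genes with a symbol, and 35 (19.6%) on all 6, against 34.8%. Single arrays detected 52 solute carrier genes (PMG) to 66 (PDG). The share differed by class of substrate: 19 of 27 mitochondrial carriers, 12 of 17 zinc transporters, 3 of 3 monocarboxylate transporters and 12 of 20 carriers of nucleosides and nucleotide sugars were detected, but 4 of 14 in the glucose families, 11 of 29 in the amino acid and peptide families and 8 of 29 carriers of lipids, vitamins and organic ions. Of the 90 genes not detected in the captured cells, 30 were detected on a fetal ovary array and 60 on none of the 10 arrays.

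**Figure D1:**
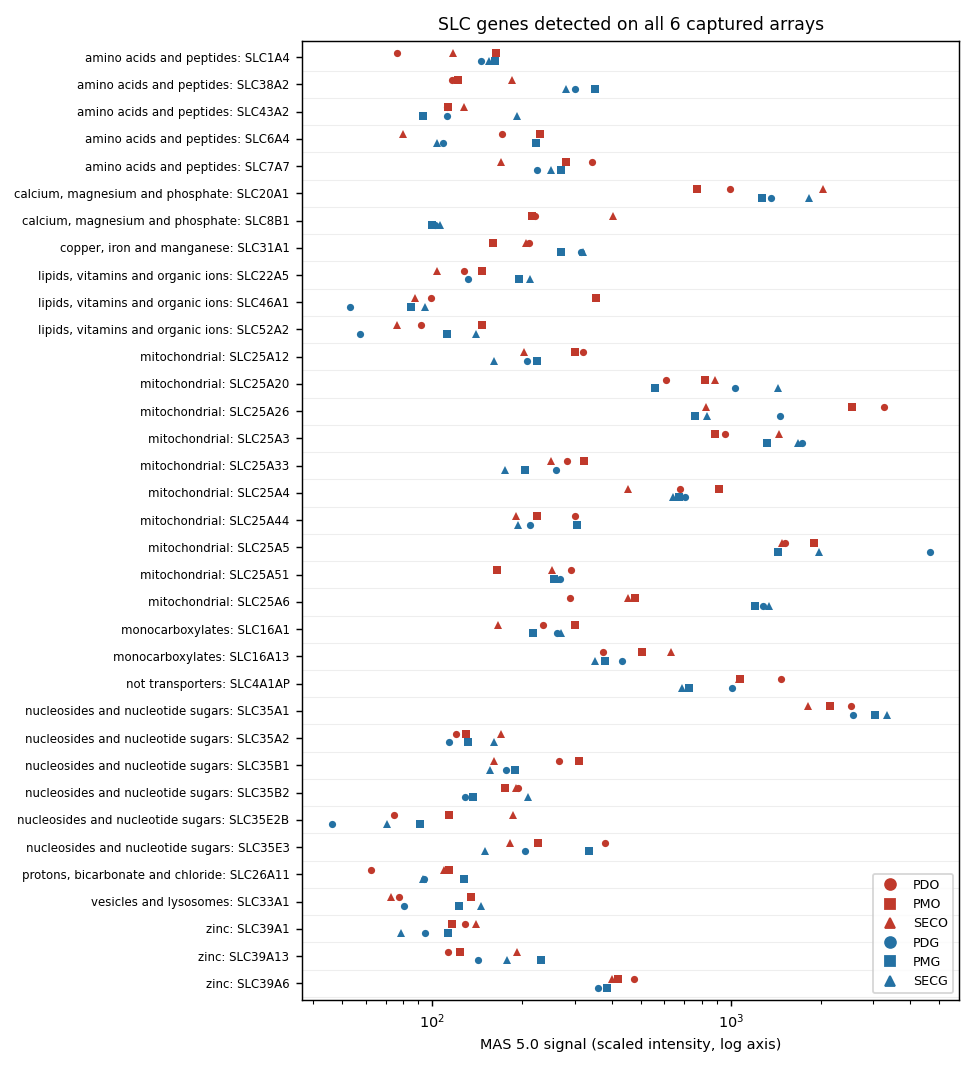
MAS 5.0 signals (log axis, no unit) of the 35 solute carrier genes detected on all 6 captured arrays, by class of substrate, with a point for each array (red, oocytes; blue, GC). In SLC8B1, SLC39A1, SLC39A6 and SLC4A1AP all 3 oocyte points lie above all 3 GC points, and in SLC25A6, SLC31A1, SLC35A1 and SLC38A2 they lie below.

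The captured compartments were checked with marker genes. Of 7 oocyte markers, ZP3 and MAEL were higher in oocytes at every stage, the other 5 had mixed signs, and BMP15, a growth factor made by oocytes, was detected on 1 oocyte array (PMO) and on no GC array. Of 7 GC markers, FST and INHA were higher in GC at every stage, and AMH, FOXL2 and KITLG were not detected on any captured array. Summed per array, the oocyte markers came to 2498 to 7362 in oocytes and, overlapping, to 2734 to 5273 in GC. The GC markers came to 209 to 710 in oocytes and to 760 to 1973 in GC. Markers of neighbouring tissue were summed per array. The 5 stroma markers came to 4316 to 15731 in oocytes and, overlapping, to 12645 to 46999 in GC. Among them DCN was higher in GC at every stage, and the other 4 had mixed signs. The 4 smooth muscle markers came to 462 to 570 against 1112 to 2421. The sums of 4 endothelium markers ranged from 204 to 480 in oocytes, overlapping the 289 to 1366 of GC, and those of 4 leukocyte markers from 116 to 211 and from 122 to 161. Haemoglobin HBB read 3838 on SECO, against at most 398 on the other captured arrays. The other red blood cell markers of the list, HBA, SLC4A1 and ALAS2, were not detected on any captured array. HBA read 42.6 on SECO and 47.1 on PDO. These values accompany every difference between the compartments below, and their part in it was not tested.

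No solute carrier gene passed the test between oocytes and GC. The linear model of limma, with stage and compartment as terms, called 0 of 11642 probe sets at a Benjamini-Hochberg adjusted p under 0.05 (background 0%), and the smallest adjusted p was 0.406, which 5 solute carrier genes share: SLC8B1, SLC25A6, SLC16A3, SLC17A5 and SLC38A2. At an unadjusted p under 0.05, 1295 probe sets (11.1%) would pass. By gene, 2 of the 89 detected solute carrier genes lay under that p and were higher in oocytes (all genes: 5.65%), and 7 (7.87%) were higher in GC (all genes: 5.12%). The sign was the same at every stage in 16 genes higher in oocytes, or 18.0% (all genes: 19.9%), and in 15 genes higher in GC, or 16.9% (all genes: 16.5%), with mixed signs in the other 58. Over the primordial and primary stages alone, an alternative added after the data were seen because SECO stood apart in HBB, 31 and 24 genes had the same sign at both. The median difference of the 89 genes was 0.04 on the log2(signal + 20) scale, against 0.05 for all genes tested. In bulk samples such as these, fewer cells of a type and less RNA per cell cannot be told apart.

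Differences on this scale understate the change of dim genes, and SE denotes the standard error of the limma fit, which ranged from 0.30 to 0.48 among the 89 genes. In the values that follow, 3 signals always stand in the order primordial, primary and secondary.

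Among the genes of the glucose families, SLC2A1 (GLUT1), the basal glucose transporter of most cells, read 6.96, 66.0 and 90.1 in oocytes, against 54.6, 86.0 and 203 in GC. It was detected on SECO and on all 3 GC arrays and was higher in GC at each stage, while the range of its oocyte signals overlapped that of its GC signals. The difference was -0.93 ± 0.35 (log2 ± SE, adjusted p = 0.42 by limma). No fold is given, since PDO and PMO lay under their limits. With each signal under its array's limit set at that limit, an alternative added after the data were seen, the difference was -0.41 (adjusted p = 0.526 by limma). SLC2A8 (GLUT8), an intracellular hexose transporter, gave 58.5, 66.4 and 68.7 in oocytes and 30, 64.0 and 68.8 in GC, with 2 arrays of the oocytes and 1 of the GC above the limit. SLC2A5 (GLUT5), a fructose transporter, was detected on PMO, SECO and PDG, and SLC5A9, a sodium-coupled sugar transporter, on PDO and PDG. None of the 14 genes of the glucose families was detected on all 6 arrays, and the insulin-responsive SLC2A4 was detected on none of the 10. The SLC5 family also holds carriers of other solutes, such as the iodide transporter SLC5A5 and the vitamin transporter SLC5A6, neither of which was detected.

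The 3 monocarboxylate transporters, which carry lactate, pyruvate and related acids with protons, were all detected. SLC16A3 (MCT4), the carrier known for lactate export from glycolytic cells, read 33.5, 75 and 117 in oocytes and 84.5, 196 and 587 in GC. Its GC signal was above the oocyte signal at all 3 stages, with oocyte minus GC differences of -0.97, -1.18 and -2.14 on the log2 scale, with a mean difference of -1.43 ± 0.35 (2.69-fold higher in GC, adjusted p = 0.406). PDO was under the detection limit for this probe set, and with signals set at the limit the difference was -1.29 (2.44-fold higher in GC). A further probe set of SLC16A3, detected on 2 arrays, differed in the same direction by -0.22, and the third, not detected, by -0.06. With the 3 averaged the difference was -0.57. SLC16A1 (MCT1), which serves import and export of the same acids, gave 236, 301 and 166 in oocytes and 261, 217 and 271 in GC, and its relative SLC16A13 gave 374, 506 and 632 in oocytes against 432, 381 and 350.5 in GC. For these 2 genes the compartments overlapped and the sign of the difference changed between stages.

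Of the amino acid carriers, SLC38A2 (SNAT2), a sodium-coupled carrier of small neutral amino acids, read 117, 122 and 186 in oocytes and 302, 350.2 and 281 in GC. All GC arrays lay above all oocyte arrays, with a mean difference of -1.06 ± 0.33 (2.08-fold higher in GC, adjusted p = 0.406). SLC1A5 (ASCT2), an exchanger of neutral amino acids including glutamine, was also higher in GC at each stage, with 54.1, 75.9 and 51.4 against 62.5, 127 and 61.7, a difference of -0.32 ± 0.31. SLC6A8, which carries creatine and not an amino acid, was higher in oocytes at each stage by 0.32 ± 0.31, with 46.0, 119 and 133 against 41.4, 66.6 and 115. The ranges of both genes overlapped between the compartments.

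SLC7A7, the light chain of a dibasic amino acid exchanger, was detected everywhere at 343, 282 and 170.1 in oocytes and 224, 270.4 and 249.9 in GC, and its difference of 0.04 ± 0.34 changed sign between stages. Its partner subunit SLC3A2, the heavy chain shared by several SLC7 carriers, was above the limit on PDG only, at 55.5. PMO (62.4) and SECO (58.0) read higher for SLC3A2 but lay under their own, higher limits. Detection on all 6 arrays was further found for the neutral amino acid carrier SLC1A4, for SLC43A2, a carrier of large neutral amino acids, and for the serotonin transporter SLC6A4, whose differences by stage were 0.57, 0.04 and -0.31. No member of the SLC15 family of peptide transporters was detected in the captured cells.

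Of 17 zinc transporters, 12 were detected: 2 of the SLC30 family, which moves zinc out of the cytosol, and 10 of the SLC39 family, which moves it in. SLC39A6 (ZIP6) read 476, 419 and 399 in oocytes and 359, 385 and 386 in GC, and SLC39A1 (ZIP1) read 129, 117 and 141 in oocytes against 95.0, 113 and 78.6 in GC. In both genes every oocyte array lay above every GC array, by means of 0.18 ± 0.30 and 0.37 ± 0.31 (adjusted p = 0.846 and 0.676). SLC39A13 (ZIP13), a carrier of intracellular membranes, was on all 6 arrays at 113, 124 and 193 in oocytes and 143, 232 and 178 in GC, with mixed signs.

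SLC39A14 (ZIP14), which carries zinc and also iron and manganese, was detected on 2 GC arrays and on no oocyte array. Its signals were 29.5, 54.0 and 49.5 in oocytes, all under the limits of their arrays, and 48.1, 69.1 and 117 in GC, with PMG under its limit. Set against those limits, the GC mean was at least 1.12-fold higher, and the limma difference of -0.57 ± 0.32 had an adjusted p of 0.533. SLC39A12 showed the opposite: it was detected on PDO and PMO, at 80.5 and 93.8, and on no GC array, so that the oocyte mean was at least 1.08-fold higher. SLC39A5 passed the limit on SECO only (78.7) and SLC39A7, a zinc carrier of the endoplasmic reticulum and Golgi, on SECG only (59.1). Among the metallothioneins, which bind zinc, MT1A was detected on 3 captured arrays and MT2A on 1.

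Among the mitochondrial carriers, SLC25A6, a translocase that exchanges ADP for ATP across the inner membrane, had the largest difference toward GC of the 89 genes. Its signals were 291, 477 and 454 in oocytes and 1283, 1203 and 1343 in GC, so all GC arrays lay above all oocyte arrays, and the difference was -1.63 ± 0.32 (3.1-fold higher in GC, adjusted p = 0.406). The 2 other probe sets of the gene differed in the same direction by -0.68 and -0.03, and the average of the 3 was -0.78. Its near-identical relatives had smaller differences: SLC25A4 differed by -0.04 ± 0.33, and SLC25A5 by -0.54 ± 0.42 on its first probe set, with 4633 on PDG against 1516 on PDO, and by 0.51 on its second. Probes for these 3 genes may share targets, so the split of signal among them is uncertain.

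SLC25A26, which brings the methyl donor S-adenosylmethionine into mitochondria, read 3254, 2545 and 829 in oocytes and 1466, 760.1 and 835 in GC. PDO and PMO stood well above the GC of their stage, by 1.14 and 1.72 on the log2 scale, and SECO did not, at -0.01. The mean difference was 0.95 ± 0.40 (adjusted p = 0.442), and a second probe set detected on all 6 arrays gave 1.02. SLC25A3, the phosphate carrier that feeds ATP synthesis, was higher in GC at every stage, with 956, 888 and 1449.9 against 1730.1, 1325 and 1683 and a difference of -0.54 ± 0.31.

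In the other direction, 3 mitochondrial carriers were higher in oocytes at every stage on the probe set used. SLC25A12, a carrier of aspartate and glutamate, gave 319, 302 and 204 against 207, 225 and 162 (0.42 ± 0.30). A second probe set of SLC25A12, detected on 5 captured arrays, differed by 0.20 and was lower in oocytes at the primary stage (163 against 208). The third, detected on 1, differed by 0.04, and the average of the 3 was 0.22. SLC25A33, which carries pyrimidine nucleotides, gave 284, 324 and 249 against 261, 204 and 175 (0.40 ± 0.31). The oxoglutarate carrier SLC25A11 gave 85.6, 105 and 84.9 against 67.1, 49.3 and 83.5 (0.38 ± 0.32), which turned to -0.09 when its 2 probe sets were averaged. Of these, SLC25A11 alone had no overlap between the compartments.

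SLC8B1, the sodium/calcium exchanger of the mitochondrial inner membrane, had the largest difference toward oocytes of the 89 genes. Its oocyte signals were 221, 215 and 403 and its GC signals 102, 100.3 and 106. The GC signals were nearly level, every oocyte array was above them, and the difference was 1.23 ± 0.33 (2.35-fold higher in oocytes, adjusted p = 0.406). The phosphate importer SLC20A1, of the plasma membrane, showed no such order at 993, 771 and 2035 in oocytes and 1359, 1276 and 1833 in GC.

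In the pathway of sialic acid, SLC17A5 (sialin) exports sialic acid from lysosomes, and SLC35A1 brings CMP-sialic acid into the Golgi. SLC17A5 read 38.7, 34.9 and 77.3 in oocytes, with only SECO above its limit, and 97.1, 157 and 153 in GC, where all 3 arrays were above theirs. The compartments did not overlap and the difference was -1.17 ± 0.33 (adjusted p = 0.406 by limma). With signals under the limit set at it, the difference was -0.81 (1.76-fold higher in GC, adjusted p = 0.159 by limma). SLC35A1 read 2536, 2152 and 1815 against 2576, 3042 and 3343, a difference of -0.46 ± 0.32 with nearly equal signals on PDO and PDG.

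Of the 12 detected carriers of nucleosides and nucleotide sugars, 5 were higher in oocytes at every stage and 1, SLC35A1, in GC, where the shares over all genes were 19.9% and 16.5%. Whether the class differs from all genes was not tested. SLC35E2B, an orphan member of this family, gave 74.6, 114 and 186 in oocytes and 46.3, 90.9 and 70.7 in GC (0.66 ± 0.33), while its second probe set differed by -0.41 and the average of both by 0.12. SLC35B1, a carrier of adenine nucleotides into the endoplasmic reticulum, gave 266, 309.6 and 161 in oocytes against 177, 189 and 156 in GC (0.41 ± 0.31). SLC35F6 was detected on PMO and SECO and on no GC array, which puts the oocyte mean at least 1.18-fold higher, and the nucleoside transporter SLC29A1 on PMO only, at least 1.06-fold higher. The glucose-6-phosphate carrier SLC37A4 was detected on PDO and SECG only, and its difference of 0.74 ± 0.34 rests mostly on signals under the limit.

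Among carriers of lipids, metals and other ions, SLC27A1 (FATP1), a long-chain fatty acid carrier, read 50.9, 24.5 and 152 in oocytes and 75, 132 and 227 in GC, with PDO and PMO under the limit and a difference of -0.90 ± 0.37 (adjusted p = 0.438). The carnitine transporter SLC22A5 was also higher in GC at each stage, with 128, 147 and 104 in oocytes against 132, 195 and 213 in GC and a difference of -0.44 ± 0.33. SLC46A1, which carries folate with protons, read 355 on PMO and between 53.0 and 99.3 on the other 5 arrays. SLC31A1 (CTR1), the copper importer, read 211, 159.7 and 206 in oocytes and 315, 269.9 and 319.8 in GC without overlap, a difference of -0.61 ± 0.30 (1.52-fold higher in GC, adjusted p = 0.49). The iron and manganese carrier SLC11A2 was detected on SECO and all 3 GC arrays, with mixed signs. Of the carriers of protons, bicarbonate and chloride, SLC4A11 was higher in oocytes (0.51 ± 0.30) and the potassium/chloride cotransporter SLC12A4 in GC (-0.53 ± 0.32) at each stage, each with 2 or 3 of its 6 arrays under the limit. The sulfate carrier SLC26A11 and the acetyl-CoA carrier SLC33A1 were detected on all 6 arrays with overlapping signals in the compartments, of 62.6 to 128 and of 72.8 to 146. SLC4A1AP, which is no carrier, gave 1471, 1075 and 1069 in oocytes and 1012, 724 and 688 in GC (0.57 ± 0.30).

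Over all 89 genes, 6 (6.74%) had every oocyte array above every GC array: SLC25A11, SLC39A1, SLC39A6, SLC4A11, SLC4A1AP and SLC8B1. The share over all genes was 8.04%. The reverse order was found in 5 (5.62%), namely SLC17A5, SLC25A6, SLC31A1, SLC35A1 and SLC38A2, against 7.18% of all genes. Detection in a single compartment was found for 22 genes, 15 of them on a single array: 8 on oocyte arrays only (8.99%; all genes 7.22%) and 14 on GC arrays only (15.7%; all genes 10.9%). No gene was found on 3 of 3 arrays in either compartment while missing from every array of its counterpart.

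**Figure D2:**
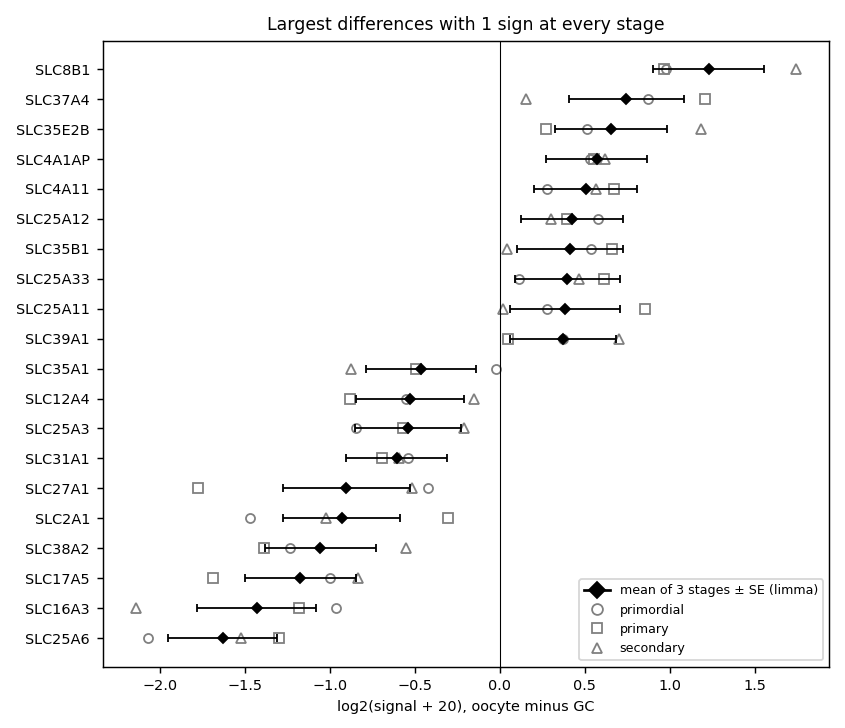
Oocyte minus GC difference on the log2(signal + 20) scale for the 10 solute carrier genes in each direction with the largest difference of 1 sign at every stage (diamonds, mean of 3 stages with the limma SE as bars; open symbols, single stages). SLC8B1 lies at 1.23 and SLC25A6 at -1.63, and no gene passed an adjusted p of 0.05.

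The genes that work with these carriers were read from a list of 21 partner genes, of which 16 have a symbol on the array and 15 were detected. None passed the test, 5 were higher in GC at every stage and 0 in oocytes at every stage, where the shares over all genes were 16.5% and 19.9%. Whether the list differs from all genes was not tested. GJA1 (connexin 43), a gap junction protein known from GC, read 2265, 1800.1 and 2058 in oocytes and 3474, 4437 and 9910.2 in GC, without overlap (-1.39 ± 0.39, adjusted p = 0.406). The other 4 were BSG (basigin), the chaperone of the monocarboxylate transporters, ATP1B3, a subunit of the sodium pump, LDHB, a lactate dehydrogenase subunit, and MPC2, a subunit of the mitochondrial pyruvate carrier, with differences of -0.39, -0.46, -0.65 and -0.49. LDHA and MPC1, the counterparts of LDHB and MPC2, differed by 0.22 and 0.33 with mixed signs.

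Between the primordial and the secondary stage, again no probe set of 11642 passed the limma test (background 0%); the smallest adjusted p was 0.238, and 1325 probe sets (11.4%) lay under an unadjusted p of 0.05. Of the 89 genes, 33 (37.1%) were higher at the secondary stage in both compartments and 24 (27.0%) were lower, against 32.2% and 28.2% of all genes. The median difference was 0.22 on the log2 scale, against 0.04 for all genes. Within the compartments the medians lay closer to those of all genes, at 0.11 against 0.07 in oocytes and 0.08 against 0.004 in GC. By class, 10 of 19 mitochondrial carriers were lower at the secondary stage in both compartments and 5 higher, whereas 6 of 12 zinc transporters were higher and 1 lower. Only 3 of these zinc transporters and 10 of these mitochondrial carriers were detected on all 6 arrays, so some signs rest on signals under the limits. Whether the classes differ was not tested. An unadjusted p under 0.05 was found for 6 genes higher at the secondary stage (6.74%; all genes 7.15%), SLC16A3, SLC2A1, SLC27A1, SLC6A8, SLC39A7 and SLC7A5, and for 2 lower (2.25%; all genes 5.74%), SLC25A26 and SLC7A9.

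The lactate carrier SLC16A3 had the largest stage difference, 1.95 ± 0.43 (3.86-fold higher at the secondary stage, adjusted p = 0.238). This rests on the probe set used: the other detected one differed by 0.26 and the third by 0.03, and the average of the 3 was 0.75. With signals set at the limit, which PDO did not reach, the probe set used differed by 1.73 (3.32-fold). On the probe set used, the signals given above stood in the order primordial, primary, secondary in oocytes and in GC alike. The glucose transporter SLC2A1 showed the same order in both compartments, with 1.81 ± 0.42 (adjusted p = 0.25), but PDO and PMO were under their limits, and the difference was 1.10 with signals set at the limit (adjusted p = 0.168 by limma). SLC27A1 differed by 1.33 ± 0.46 (2.51-fold, adjusted p = 0.361 by limma), with its lowest signal on PMO, and by 0.65 when averaged with its second probe set, which was not detected. With signals set at the limit, which PDO and PMO did not reach, SLC27A1 differed by 1.32 (2.49-fold). These 3 genes are also among those higher in GC at every stage.

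For the creatine carrier SLC6A8, on the probe set used, neither primordial array reached its limit. The secondary arrays were thus at least 2.09-fold higher, with a limma difference of 1.18 ± 0.38 (adjusted p = 0.346). The second probe set of SLC6A8, not detected on any captured array, differed by 0.21. SLC7A5 (LAT1), a carrier of large neutral amino acids, passed the limit on SECG only, so that the secondary arrays were at least 1.31-fold higher. SLC39A7 had its only detected captured signal on SECG. SLC22A18, an organic cation transporter-like protein, read 25.7, 29.9 and 49.2 in oocytes and 4.1, 59.7 and 50.3 in GC and passed the limit on SECG only, at least 1.01-fold higher.

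Among the genes lower at the secondary stage, SLC25A26 was detected throughout, with -1.37 ± 0.49 (2.59-fold lower, adjusted p = 0.365) and -1.29 on its second probe set. SLC7A9, the light chain of the cystine carrier, read 78.4, 76.7 and 7.39 in oocytes and 37.2, 47.2 and 7.86 in GC and was detected on PDO and PMO only (-1.44 ± 0.39, adjusted p = 0.277). The next were the mitochondrial glycine carrier SLC25A38, detected on PDO only, the sodium/proton exchanger SLC9A5, detected on PDG and PMG, and SLC66A3, detected on PDO and PDG. For SLC66A3 the primordial arrays were at least 1.1-fold higher. For SLC7A9, SLC25A38 and SLC9A5 no fold is given, since the secondary signals were all under the limit and the primordial mean did not exceed it.

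**Figure D3:**
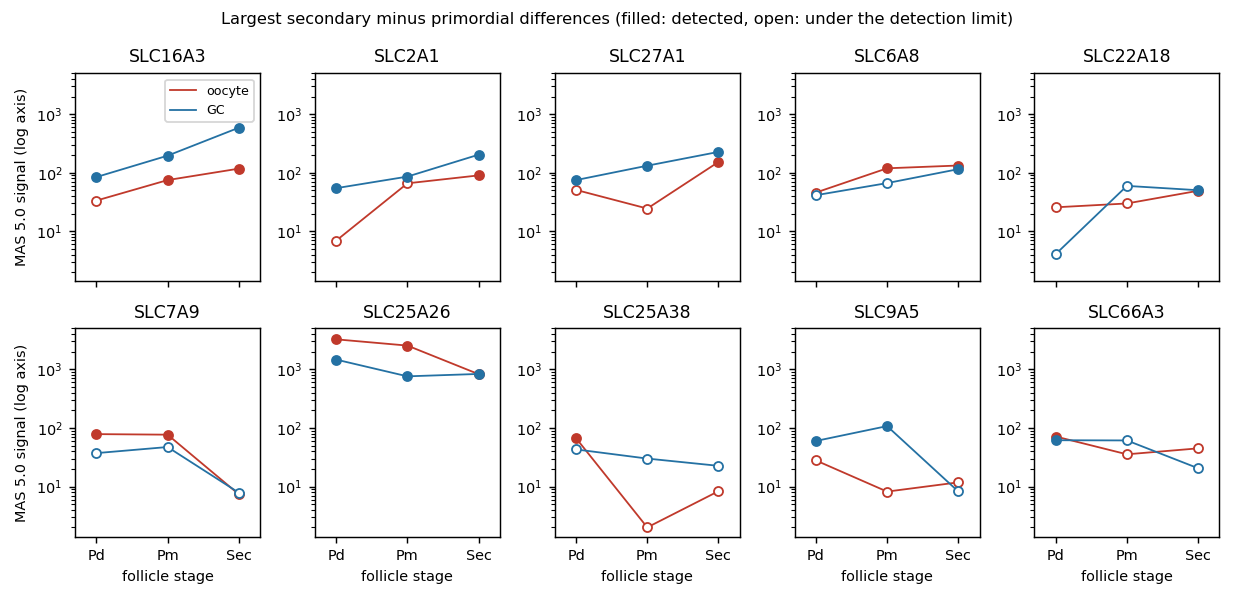
MAS 5.0 signals (log axis, no unit) at the primordial (Pd), primary (Pm) and secondary (Sec) stage for the 5 solute carrier genes in each direction with the largest stage difference of 1 sign in both compartments; each point is 1 array, filled where detected. SLC16A3 goes from 33.5 to 117 in oocytes and from 84.5 to 587 in GC, and SLC25A26 from 3254 to 829 and from 1466 to 835.

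The fetal ovary arrays show how the signals of these genes differed between the labelling protocols. The ovine P1 and P3 arrays were compared over the 99 solute carrier genes detected on at least 1 of them, without replicates and so without a test. By the measured ratio of signal + 20, 4 genes (4.04%) were at least 4-fold lower under P3 than under P1, against 4.31% of all genes, and 4 (4.04%) at least 4-fold higher, against 3.27%. With each signal under its array's limit set at that limit, 1 gene stayed at least 4-fold lower, SLC29A1 (1.01%; all genes 2.98%), and all 4 stayed at least 4-fold higher (all genes 3.04%). The 4 higher under P3 were SLC25A20, SLC27A1, SLC16A3 and SLC20A1. SLC25A20, which carries acylcarnitine into mitochondria, read 174 under P1, 1067 under P2 and 2189.6 under P3, 11.4-fold higher under P3 than under P1 on the log2(signal + 20) scale. On the probe sets used, SLC27A1 read 12.8, 88.9 and 278, and SLC16A3 17.4, 78.5 and 198. Under P1 neither of these probe sets was detected, and P3 was at least 5.72-fold and at least 4.18-fold higher. Another probe set of each gene was detected under P1 and read lower under P3. It gave 89.7, 24.6 and 18.9 for SLC27A1, and 44.8, 31.6 and 29.2 for SLC16A3. The probe sets used had been chosen on the captured arrays, all of them labelled by P3. SLC20A1 read 237, 443 and 1233. SLC16A3 and SLC27A1 are 2 of the genes with the largest stage differences. They read highest under P3, the protocol of all captured arrays, on the probe sets used, but highest under P1 on the others given. Whether the labelling bears on the stage differences was not tested.

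The 4 lower by measured ratio were SLC29A1, SLC30A1, SLC35F5 and SLC25A16, all of them under the limit with P3. The nucleoside transporter SLC29A1 read 396 under P1, 47.0 under P2 and 40.1 under P3, where it was under the limit and at least 6.67-fold lower. SLC30A1 (ZnT1), the zinc exporter of the plasma membrane, read 125 under P1 and 14.9 and 15.7 under the other protocols, at least 2.33-fold lower under P3. SLC35F5, an orphan of the nucleotide sugar family, read 81.0, 88.2 and 4.8, at least 1.62-fold lower, and the mitochondrial carrier SLC25A16 193, 64.9 and 32.8, at least 3.42-fold lower. SLC30A1 belongs to the 17 genes detected under P1 and on no captured array, of which 13 were also not detected under P3. SLC2A1 (194, 144 and 178) and SLC17A5 (131, 170 and 102) were alike under the 3 protocols, whereas SLC38A2 read 394, 666 and 95.0 and SLC8B1 64.5, 124 and 236. Of 85 solute carrier genes detected under P1, 63 (74.1%) were detected under P3, against 81.2% of all genes, and 68 (80.0%) on a captured array, against 88.1%. Conversely, 18 of the 89 genes of the captured arrays (20.2%) were not detected in fetal ovary under P3, against 18% of all genes.

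The same ovine P1 array was set against bovine P1 to see how the bovine probes read sheep RNA; the ages of the ovaries differ too, so species and age cannot be told apart. Of 93 solute carrier genes detected with bovine RNA, 74 (79.6%) were detected with ovine RNA, against 86.9% of all genes. By class, this held for 20 of 20 mitochondrial carriers but for 4 of 8 carriers of vesicles and lysosomes. Of 104 genes detected with either RNA, 2 (1.92%; all genes 4.4%) were at least 4-fold lower with ovine RNA by the measured ratio of signal + 20, SLC39A14 and the copper carrier SLC31A2, and 1 (0.962%; all genes 1.42%) was higher, SLC35E3. With signals set at the limit, SLC39A14 alone stayed at least 4-fold lower (all genes 3.37%). SLC39A14 read 261 with bovine and 37.6 with ovine RNA under P1, and 54.4 and 28.9 under P2 and P3. SLC31A2 read 114 with bovine and 12.7 with ovine RNA, under the limit, which is at least 2.57-fold lower. The orphan SLC35E3 read 347 with ovine and 62.6 with bovine RNA. Under the 4-fold minimum, the farthest toward ovine RNA were SLC16A13 (212 against 43.7), SLC30A1 (125 against 21.9, under the limit) and SLC25A11 (314 against 82.5), and toward bovine RNA the sodium/bicarbonate cotransporter SLC4A7 (35.2 against 171) and the peroxisomal carrier SLC25A17 (39.7 against 148).

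**Figure D4:**
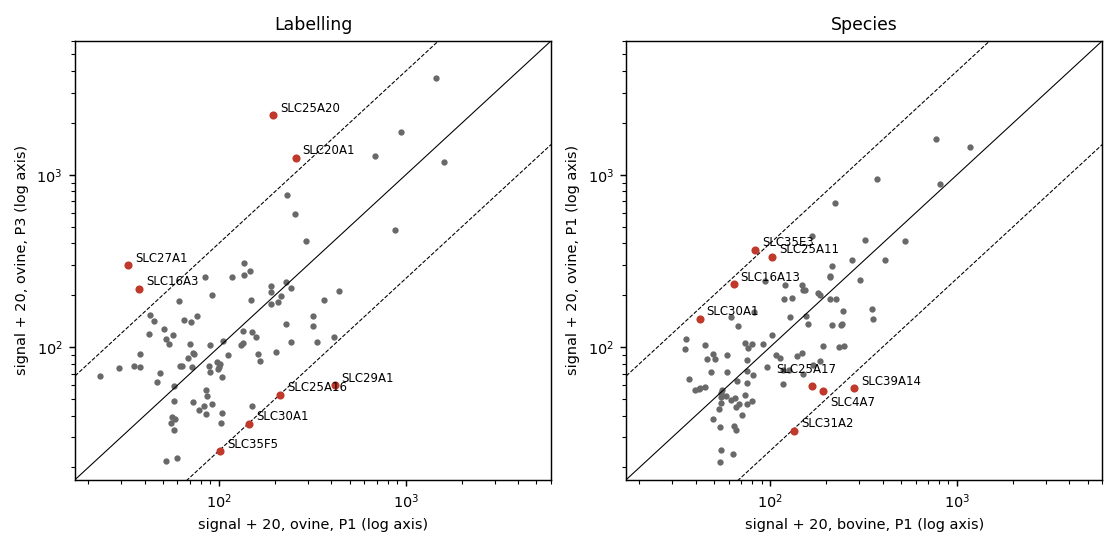
Signal + 20 (log axes, no unit) of solute carrier genes detected on at least 1 of the 2 fetal ovary arrays compared, each point a gene: left, ovine P3 against ovine P1 (99 genes); right, ovine P1 against bovine P1 (104 genes). The solid line marks equal signal and the dashed lines 4-fold, and the 4 genes farthest out in each direction are red.

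Of the 89 detected genes, 31 had several probe sets, and in 11 of them another probe set besides the one used was detected in the captured cells, 13 probe sets in all. The difference between oocytes and GC had the same sign in 9 of the 13. The 4 exceptions belong to SLC25A5, SLC25A34, SLC35E2B and SLC52A2. In 1 further gene, the sodium/calcium exchanger SLC8A1, the probe set used was not detected, but another was, on PMG at 114, and it differed by -0.50 where the one used differed by 0.32.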

How the data were processed

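Affymetrix Bovine Genome Arrays were hybridised with RNA of 6 captured samples and 4 fetal ovaries, 1 array per group. MAS 5.0 intensities, linear and with no log taken, were deposited, and the authors scaled each array to a target of 100 without further normalization (mean without the lowest and highest 2%: 100.02 to 100.04). The number of arrays limits the precision. The value table was used through its own sample columns, and 112 control probe sets were left out. Gene symbols came from the platform annotation, and 175 of the 179 SLC symbols are in the sheep RefSeq gene list.

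Detection used the share of present calls per array from the paper's quality table, since calls were not used here, and was applied as a rank of the signals. A constant of 20 was added and log2 was taken. The lmFit and eBayes functions of limma 3.58.1 in R 4.3.3 were fitted with stage and compartment on the 6 captured arrays, for 11642 probe sets, those with a detected signal on any of the 6. The fit had 2 residual degrees of freedom and a prior worth 5.43. Adjustment was by Benjamini-Hochberg. The median residual SD was 0.38. Since the 3 stages stand in for replicates, p-values also take in how the oocyte minus GC difference varied between stages. Stage differences shared by the compartments are taken up by the stage term. Bounds ("at least N-fold") set each array of the group with no detection at its limit or its own signal, whichever is higher. The fit was tested on simulated data.

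Genes were named by rule: the 2 given (SLC39A14, SLC17A5), per class the 2 of highest mean and the 2 in each direction with the largest oocyte minus GC difference, over all members the 10 in each direction, 5 in each direction for stage, and 4 in each direction for labelling and species. Any other gene was picked with its values in view. The members and lists were chosen with earlier results of these data known. Substrate classes follow SLC family numbers, and SLC66 was placed among vesicles and lysosomes after the files were read. The alternatives were the constant, quantile normalization, the filter, the detection limit, the prior variance, the model terms, the probe set rule, signals set at the limit and leaving out stages.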

Additional observations from a re-analysis of the deposited data

Results flagged for a closer look

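In 2 genes the difference between the secondary and the primordial stage had opposite signs in the compartments, by at least 0.5 on the log2(signal + 20) scale in each, and with 1 array per group the difference was not tested. SLC12A3, the sodium/chloride cotransporter known from the kidney, differed by 0.55 in oocytes, with signals of 56.6, 86.8 and 92.2 in the order primordial, primary and secondary, and by -0.59 in GC, with 58.4, 36.9 and 32, of which the primary and secondary signals were under the detection limit. SLC2A5, the fructose transporter, differed by 0.59 in oocytes, with 50.5 (under the limit), 76.5 and 86.0, and by -0.83 in GC, with 54.4, 31.7 and 21.9, where PDG alone was detected.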

How the results depend on the processing

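No solute carrier gene was called in either comparison under any of the alternatives run, and the calls were 0 to 0 when stages or SECO were left out. Over all probe sets, the intensity trend in the prior variance gave 10 calls between oocytes and GC, and between the stages 67 calls came from that trend, 37 from a constant of 50 and 18 without the primary stage, none of them a solute carrier gene. Counting detection from a signal of 100 left 52 of the 89 genes. Counting it from a signal of 50 gave 113 genes, and taking the brightest 30% of every array gave 83. The primordial and primary stages alone, an alternative added after the data were seen, gave 31 genes higher in oocytes (16 over 3 stages) and 24 higher in GC (15 over 3 stages), since a sign at 2 stages asks less than a sign at 3. Of 345 values of single genes under the alternatives, 3 were reversed: SLC25A11 between the compartments, at -0.092 with its probe sets averaged, and SLC25A38 and SLC9A5 between the stages, at 0.0508 and 0.0412 with signals under the detection limit set at it, an alternative also added after the data were seen. Genes at least 4-fold lower under P3 than under P1 numbered 9 with a constant of 1 and 1 with a constant of 50 (4 with 20), and those lower with ovine RNA 6 and 0 (2 with 20). With signals under the limit set at it, each of these counts was 1. Signals near the detection limit, which hold most glucose family genes, have little precision. The stage term already pairs the oocyte and GC arrays of a stage, and without it no probe set was called (smallest adjusted p 0.518 by limma). Pairing by replicate number was not possible because each group holds 1 array.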
